A study of Homo sapiens with 6 samples.

Results

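The immune checkpoint ligands described here are 10 genes, VSIR, CD274, PDCD1LG2, CD276, VTCN1, CD47, PVR, NECTIN2, LGALS9 and NT5E, of the 58735 genes in the deposited count table. The set was chosen because VSIR, selected on its measured fall with treatment, had one of the largest decreases in the data, and the other 9 genes were added to it as genes of related function. The values of VSIR are therefore given as a description with no test. The rule did not use the values of the other 9 genes, and these are read from the comparison fitted across all genes.

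RNA-Seq was performed on BT549, a long-established line of basal-like breast cancer, to find genes whose expression depends on FOXO1, a forkhead transcription factor. Cells were plated at 100000 per 10 cm dish and exposed from the following day, for 48 h, to the solvent DMSO or to AS1842856, a small molecule that binds FOXO1. Each group had 3 libraries, named replicates A, B and C, and no genotype or other agent was given for either group. The dose was 200 nM in the sample labels and 1 μM in the text of the methods, and which one applies to these libraries was not resolved. All libraries came from 1 cell line, so p-values measure the spread within it. The methods text calls the replicates biological, and the labels do not say how the cultures were kept apart.

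Library totals were between 15289500 and 22981832 counts. Of 13 genes used to check the cell line, mesenchymal VIM was at 1320 and SPARC at 1194 CPM (counts-per-million after TMM scaling) in DMSO, while the epithelial gene CDH1 and the receptor gene ESR1 each had at most 1 count in all 6 libraries together. The epithelial keratin KRT18 (33.9 CPM in DMSO) and the luminal factor GATA3 (50.8 CPM) were also present. Of the 13, 9 passed the filter on low counts, and with AS1842856 6 of these fell and 3 rose. The 6 included KRT18 (to 3.45 CPM) and the receptor kinase AXL (422.0 to 134.3 CPM), and the 3 included FN1 (449.0 to 979.8 CPM). Among all 14338 genes tested, 28.4% were called lower and 27.6% higher (edgeR, adjusted p under 0.05), and these 13 were not tested as a set. The blood cell markers CD3D, CD3E, CD2, MS4A1, ITGAX and TYROBP had 0 counts in every library. The summed level of the blood cell markers was 2.001 to 3.12 CPM in DMSO and 4.67 to 5.54 CPM with AS1842856, and PTPRC was the 1 marker called higher (1.15 to 3.15 CPM). PTPRC was the largest part of that sum, and only 2 of these markers passed the filter on low counts. The 6 endothelial markers summed to 0.538 to 1.05 CPM in DMSO and 1.34 to 1.86 CPM with AS1842856. Most of this sum was TEK (mean 0.770 CPM in DMSO and 1.27 CPM with AS1842856), which did not pass the test (adjusted p = 0.114, edgeR). The other endothelial markers had few counts or none. The part of these markers in the results below was not tested, and in a bulk sample fewer cells of a kind and less RNA per cell cannot be told apart.

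Immune checkpoint ligands are molecules on the surface of tumour or antigen-presenting cells that engage receptors on lymphocytes or macrophages and restrain them. PD-L1 (CD274) and PD-L2 (PDCD1LG2) bind PD-1 on T cells, and VISTA (VSIR), B7-H3 (CD276) and B7-H4 (VTCN1) are further proteins of the B7 family. PVR (CD155) and NECTIN2 (CD112) bind the inhibitory receptor TIGIT and the activating receptor CD226, and NECTIN2 also binds the inhibitory receptor PVRIG. Galectin-9 (LGALS9) binds TIM-3, CD47 signals to SIRPA on macrophages to prevent engulfment, and CD73 (NT5E) is an enzyme that makes immunosuppressive adenosine from AMP outside the cell. Expression of such ligands by tumour cells is one route by which tumours escape immune attack, and several are targets of antibody therapy.

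Promoter sequences of RefSeq (GRCh38.p14, 250 bases before to 50 bases from the transcript start) were matched to 9 of the 10 genes by symbol, with 10 windows in all. They were read for 6 short motifs on both strands. The windows of 4 genes are shown, because they span the range of responses, from the gene with the deepest fall (VSIR) through 1 that fell moderately (NECTIN2) and 1 that did not pass the test (CD274) to the 1 that rose (CD47). Each is written from 5′ to 3′ on the strand of the gene, with motif matches in capitals. The windows lie at chr10:71773471-71773770 on the minus strand for VSIR, chr19:44846047-44846346 on the plus strand for NECTIN2, chr9:5450292-5450591 on the plus strand for CD274 and chr3:108090982-108091281 on the minus strand for CD47.
VSIR: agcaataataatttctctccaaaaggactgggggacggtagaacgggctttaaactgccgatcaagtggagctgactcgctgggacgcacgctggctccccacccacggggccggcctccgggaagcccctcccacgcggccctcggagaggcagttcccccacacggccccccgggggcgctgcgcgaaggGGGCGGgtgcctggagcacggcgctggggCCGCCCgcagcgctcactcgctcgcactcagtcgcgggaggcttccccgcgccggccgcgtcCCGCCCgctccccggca
NECTIN2: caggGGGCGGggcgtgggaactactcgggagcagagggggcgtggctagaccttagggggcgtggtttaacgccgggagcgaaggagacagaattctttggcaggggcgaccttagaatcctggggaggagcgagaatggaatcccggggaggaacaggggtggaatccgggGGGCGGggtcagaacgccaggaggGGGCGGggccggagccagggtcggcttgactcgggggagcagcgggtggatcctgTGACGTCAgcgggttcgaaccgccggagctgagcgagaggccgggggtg
CD274: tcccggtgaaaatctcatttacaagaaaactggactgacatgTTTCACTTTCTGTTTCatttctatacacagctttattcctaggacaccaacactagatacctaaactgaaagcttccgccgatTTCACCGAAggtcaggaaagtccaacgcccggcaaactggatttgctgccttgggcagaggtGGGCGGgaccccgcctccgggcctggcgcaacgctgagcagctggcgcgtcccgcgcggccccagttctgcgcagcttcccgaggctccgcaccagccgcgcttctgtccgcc
CD47: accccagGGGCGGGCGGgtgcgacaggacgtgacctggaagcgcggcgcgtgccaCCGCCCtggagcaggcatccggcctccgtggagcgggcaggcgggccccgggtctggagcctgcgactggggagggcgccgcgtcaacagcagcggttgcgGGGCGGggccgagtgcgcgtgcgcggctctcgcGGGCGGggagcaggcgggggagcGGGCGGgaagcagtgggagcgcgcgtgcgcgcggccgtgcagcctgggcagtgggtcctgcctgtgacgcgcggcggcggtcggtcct

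The capitals in VSIR mark 3 GC boxes (GGGCGG or its reverse complement CCGCCC), a motif held by 44.9% of the 34796 promoter windows of the reference. NECTIN2 held 3 GC boxes and, 1 base after the start, the cyclic AMP response element core TGACGTCA, which was in 1.84% of all windows. The CD274 window held 2 overlapping interferon regulatory elements (TTTC repeated after any 2 bases) beginning 208 and 202 bases before the start, a STAT palindrome (TTCNNNGAA) 125 bases before it, and 1 GC box. Of all windows, 3.57% held the interferon element and 7.67% the STAT palindrome. CD47 held 6 GC boxes, of which the first pair overlap. Of the genes not shown, LGALS9 held 1 interferon element, VTCN1 held 1 AP-1 motif (TGANTCA, in 7.73% of windows), CD276 and NT5E held GC boxes and PVR held none of the 6 motifs. The forkhead consensus GTAAACA was in 3.42% of all windows and in none of the 10 windows of these genes, which says only that these letters are not within them. Such matches describe the sequence and are not evidence of binding. GC content was 72.0% for VSIR, 68.3% for NECTIN2, 57.3% for CD274 and 79.0% for CD47, beside a median of 58.7% over all windows.

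The comparison of AS1842856 with DMSO was fitted across the 14338 genes that passed a filter on low counts, by the quasi-likelihood test of edgeR with Benjamini-Hochberg adjustment over all of them and a threshold of 0.05. In that comparison 56% of the genes were called, 27.6% higher and 28.4% lower with AS1842856, and in 59.9% the CPM values of the groups did not overlap. VSIR and 7 of the other 9 checkpoint ligands passed the filter, while LGALS9 and VTCN1 did not. Of the 7, PDCD1LG2, CD276, PVR, NECTIN2 and NT5E fell, CD47 rose and CD274 did not pass the test. Given the share of all genes called, a call by itself does not set these ligands apart. The median log2 fold change of the 7 was -0.50, beside 0.0030 over all genes tested, and no test of the set was made.

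**Figure D1:**
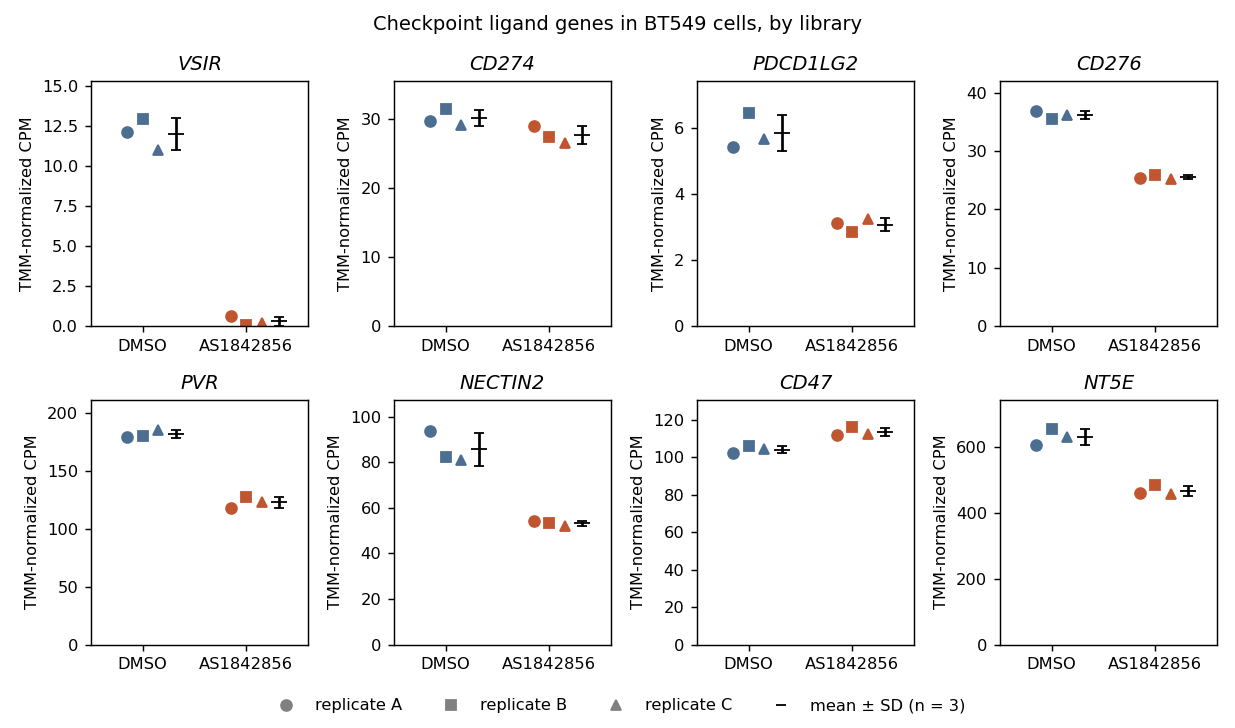
TMM-normalized CPM (vertical axes, from 0) of the 8 checkpoint ligands that passed the filter, for 3 DMSO and 3 AS1842856 libraries, with marker shapes for replicates A, B and C and black bars for the mean ± SD (n = 3). VSIR went from between 11.0 and 12.9 CPM to between 0.0875 and 0.599 CPM, the CD274 libraries of the groups lie close together, CD47 was higher with AS1842856 and the other 5 genes were lower in every treated library.

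VSIR (ENSG00000107738, chr10:71747559-71773498, minus strand, GRCh38) encodes VISTA, which acts both as a ligand and as a receptor that keeps T cells quiescent. Its counts in DMSO replicates A, B and C were 266, 199 and 204, and with AS1842856 they were 10, 2 and 3. These correspond to 12.1, 12.9 and 11.0 CPM in DMSO (12.0 ± 0.991, SD, n = 3) and to 0.599, 0.0875 and 0.168 CPM with AS1842856 (0.285 ± 0.275, SD, n = 3). The lowest DMSO library was far above the highest treated one, and within the treated group replicate A was higher than B and C.

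The log2 fold change of VSIR was -5.48 (SE 0.25), or 2.24% of the DMSO level. It ranked 5 among the 14338 genes tested, counted from the largest fall, and this rank is what chose the gene. Since the treated libraries held few counts, the ratio was also taken from summed counts, 15 against 669. This gave 2.18% of the DMSO level, with an exact 95% interval of 1.21% to 3.62% that covers counting error only. The interval pools the libraries of each group, and leaves out the spread between them and the choice of the gene by this fall. Without AS1842856 replicate A the log2 fold change was -6.54, and leaving out other libraries gave values up to -4.97. The size of the fall thus rests on few treated counts, whereas every treated library was below every DMSO library.

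The VSIR gene lies within CDH23, a cadherin gene on the opposite strand that had 2 counts in all 6 libraries together. The nearest tested genes on either side moved differently. PSAP, the gene of the precursor of the saposins, has its nearest edge 42.8 kb away and fell by 0.09 on the log2 scale (adjusted p = 0.017, edgeR). UNC5B, a netrin receptor gene 444.7 kb away on the other side, rose by 1.62 (adjusted p = 3.75e-08, edgeR).

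By the root mean square difference of log2(CPM + 0.5) over the 6 libraries, after each gene's mean was subtracted, the genes most like VSIR were RFLNA (0.230), SOX3 (0.244), MEGF6 (0.314), ATP2B2 (0.317) and PLEKHA6 (0.344). Of these, SOX3 encodes a transcription factor of early neural development, ATP2B2 a calcium pump of the plasma membrane and RFLNA a filamin-binding protein. The likeness measure picks genes with deep falls, and their log2 fold changes were -4.46 for RFLNA, -5.22 for SOX3, -4.01 for MEGF6, -4.36 for ATP2B2 and -4.36 for PLEKHA6. SOX3 was at 10.6, 12.2 and 11.2 CPM in DMSO and 0.360, 0.262 and 0.280 CPM with AS1842856, a level and a fall near those of VSIR. No other checkpoint ligand could be among these 5 genes, because the deepest fall among the others tested was -0.92 on the log2 scale (PDCD1LG2).

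The ligands of PD-1 lie next to each other on chromosome 9, 40.0 kb apart, with 0 tested genes between them. CD274 (ENSG00000120217, chr9:5450503-5470566, plus strand) was at 29.7, 31.4 and 29.1 CPM in DMSO (30.1 ± 1.18, SD, n = 3) and at 29.0, 27.4 and 26.5 CPM with AS1842856 (27.7 ± 1.25, SD, n = 3). Although every treated value was below every DMSO value, AS1842856 replicate A and DMSO replicate C nearly met. The log2 fold change was -0.12 (SE 0.07, 95% interval -0.27 to 0.03) and did not pass the test (adjusted p = 0.164, edgeR). The interval leaves room for a fall of up to 0.27 on the log2 scale and for almost no rise.

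PDCD1LG2 (ENSG00000197646, chr9:5510570-5571254, plus strand) had fewer reads, 119, 99 and 105 counts in DMSO and 52, 65 and 58 with AS1842856. On the scaled level these were 5.41, 6.44 and 5.64 CPM (5.83 ± 0.538, SD, n = 3) and 3.12, 2.84 and 3.25 CPM (3.07 ± 0.207, SD, n = 3). The groups were clearly apart. PDCD1LG2 fell by 0.92 on the log2 scale (SE 0.18, adjusted p = 1.78e-06, edgeR), which left 52.8% of the DMSO level.

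Set beside each other per length, as a ratio of FPKM (read level divided by exon length and library size), CD274 exceeded PDCD1LG2 by 3.16, 2.81 and 2.97 times in the DMSO libraries and by 5.36, 5.55 and 4.71 times in the AS1842856 libraries. The values of the groups did not overlap. Since 3 libraries against 3 cannot give an exact two-sided permutation p below 0.1, the p of this ratio was that smallest value (0.1, and 0.133 adjusted over the 4 ratios computed).

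CD276 (ENSG00000103855, chr15:73683966-73714518, plus strand) encodes B7-H3, a B7 protein found on many carcinomas. It was at 36.9, 35.4 and 36.1 CPM in DMSO (36.1 ± 0.728, SD, n = 3) and at 25.4, 25.9 and 25.3 CPM with AS1842856 (25.5 ± 0.332, SD, n = 3). Its replicates were the closest together among the tested ligands in the treated group, with a coefficient of variation of 1.30%. CD276 fell by 0.50 on the log2 scale (SE 0.07, adjusted p = 1.48e-10, edgeR), to 70.6% of the DMSO level.

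VTCN1 (ENSG00000134258, chr1:117143587-117210960, minus strand), the gene of B7-H4, had 0 counts in all 6 libraries. A count of 0 allows a level of up to 0.131 to 0.196 CPM, depending on the library, counting error only. No comparison was possible for this gene at this depth.

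PVR and NECTIN2 lie 182.6 kb apart on chromosome 19 and encode related cell adhesion proteins. PVR (ENSG00000073008, chr19:44643798-44663583, plus strand) was at 179.4, 179.9 and 185.6 CPM in DMSO (181.7 ± 3.45, SD, n = 3) and at 117.7, 127.6 and 123.3 CPM with AS1842856 (122.9 ± 4.96, SD, n = 3). All treated libraries were below all DMSO libraries by many times the spread. PVR fell by 0.56 on the log2 scale (SE 0.04, adjusted p = 8.15e-32, edgeR). Genes that overlap it had 101 counts in all (CEACAM19), 30 (the antisense gene AC243964.2) and 0 (MIR4531), the first equal to 0.586% of the counts of PVR.

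NECTIN2 (ENSG00000130202, chr19:44846175-44889228, plus strand) was at 94.0, 82.2 and 81.0 CPM in DMSO (85.7 ± 7.19, SD, n = 3). With AS1842856 it was at 54.4, 53.3 and 52.0 CPM (53.2 ± 1.22, SD, n = 3). DMSO replicate A stood above B and C, and the treated values were close to each other and below all of them. NECTIN2 fell by 0.69 on the log2 scale (SE 0.05, adjusted p = 2.66e-29, edgeR), to 61.9% of the DMSO level. Its antisense neighbour AC011481.2 had 8 counts in all.

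The FPKM ratio of PVR to NECTIN2 was 2.27 ± 0.211 in DMSO and 2.46 ± 0.136 with AS1842856 (SD, n = 3 each). The groups overlapped in this ratio (exact two-sided permutation p = 0.3, in a design that cannot go below 0.1). Of the 3 tested genes between them, BCL3, a co-regulator of NF-kB, fell from 68.3 to 51.3 CPM (adjusted p = 3.49e-12, edgeR) and BCAM, a laminin receptor, fell from 5.37 to 2.13 CPM (adjusted p = 6.91e-10, edgeR). AC243964.3 did not pass the test, at a log2 fold change of -0.11 with an adjusted p of 0.406 (edgeR). TOMM40, a mitochondrial import gene that begins 1.34 kb past NECTIN2, rose by 0.32 (adjusted p = 4.42e-15, edgeR), so the decrease did not extend to every gene of the region.

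CD47 (ENSG00000196776, chr3:108043094-108091862, minus strand) was the 1 checkpoint ligand called higher. It was at 102.1, 106.0 and 104.3 CPM in DMSO (104.1 ± 1.97, SD, n = 3) and at 111.9, 116.1 and 112.6 CPM with AS1842856 (113.5 ± 2.26, SD, n = 3). Every treated library was above every DMSO library, by a small margin. CD47 rose by 0.13 on the log2 scale (SE 0.04, adjusted p = 0.00834, edgeR), and without AS1842856 replicate B the rise was 0.11 and the call was lost (adjusted p = 0.0614, edgeR).

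LGALS9 (ENSG00000168961, chr17:27629798-27649560, plus strand) had 5, 7 and 8 counts in DMSO and 4, 7 and 7 with AS1842856. Its level was 0.371 ± 0.125 CPM in DMSO and 0.313 ± 0.0764 CPM with AS1842856 (SD, n = 3 each), and the groups overlapped. When all genes were fitted without the filter, its log2 fold change was -0.22 with a 95% interval of -1.56 to 1.11 (adjusted p = 0.844, edgeR), an error that leaves changes of over 1 on the log2 scale in both directions possible. The near-identical genes LGALS9B and LGALS9C, with which reads could be shared, had 1 and 0 counts in all.

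NT5E (ENSG00000135318, chr6:85449584-85495791, plus strand) had the most reads of these genes, between 7658 and 13322 counts per library. It was at 606.0, 653.6 and 631.6 CPM in DMSO (630.4 ± 23.9, SD, n = 3). With AS1842856 it was at 458.9, 483.5 and 456.9 CPM (466.4 ± 14.8, SD, n = 3). The highest treated library was below the lowest DMSO library by over 100 CPM. NT5E fell by 0.43 on the log2 scale (SE 0.03, adjusted p = 1.66e-27, edgeR), to 74.1% of the DMSO level.

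**Figure D2:**
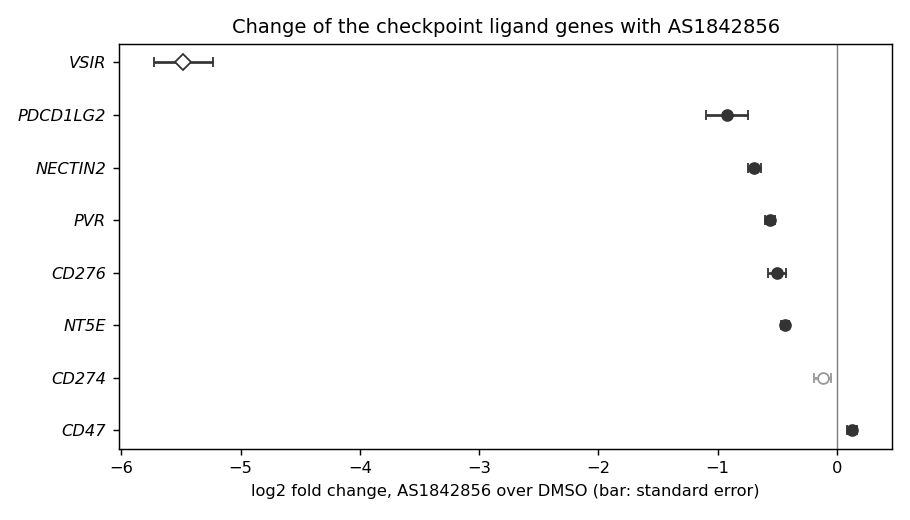
Log2 fold change of AS1842856 over DMSO (horizontal axis) for the 8 checkpoint ligands that passed the filter, with bars for the standard error. Filled points were called, the open circle (CD274) was not, and the open diamond (VSIR, at -5.48) was chosen on this value and has no test. The 5 falls that were called lie between -0.92 and -0.43, and CD47 lies at 0.13.

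Levels were compared between genes on the deposited FPKM scale, which is per length. In DMSO the order was NT5E (138.4 FPKM), PVR (51.4), NECTIN2 (22.8), CD47 (12.6), CD274 (7.29), CD276 (6.49), PDCD1LG2 (2.45), VSIR (2.33) and LGALS9 (0.0646). The library values of neighbours in this order overlapped for PDCD1LG2 and VSIR, whose levels did not differ beyond their spread, and for no other pair. With AS1842856 the order of the means was the same, with NT5E at 102.4, PVR at 34.7, NECTIN2 at 14.1, CD47 at 13.7, CD274 at 6.70, CD276 at 4.58, PDCD1LG2 at 1.29, VSIR at 0.0553 and LGALS9 at 0.0544 FPKM. Here NECTIN2 overlapped with CD47, and VSIR, which had been level with PDCD1LG2 in DMSO, overlapped with LGALS9.

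Summed over these genes, the level was 243.7 ± 4.01 FPKM in DMSO and 177.7 ± 4.60 FPKM with AS1842856 (SD, n = 3 each), or 72.9%. NT5E alone made up 55.5% to 58.0% of the sum in every library, whereas VSIR made up 0.874% to 1.01% in DMSO. The gene of CD73 was thus the bulk of the sum in both groups, and VSIR a small share of it.

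**Figure D3:**
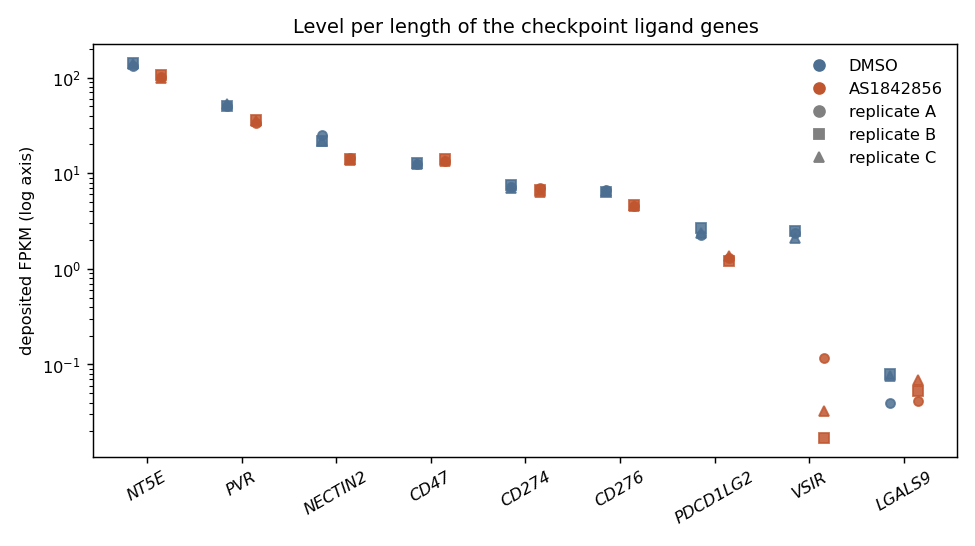
Deposited FPKM (vertical log axis) of the 9 checkpoint ligands with any reads, in order of their DMSO mean, with colours for the groups and marker shapes for replicates A, B and C. NT5E is the highest at 138.4 FPKM in DMSO, and VSIR goes from 2.33 FPKM, beside PDCD1LG2, to 0.0553 FPKM, beside LGALS9.

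Genes related to these ligands by family or function were described in 9 lists of 120 genes, of which 66 passed the filter. The lists were written from general knowledge, but with earlier results of these data known. Of the 66, 32 fell (48.5%, beside 28.4% of all genes tested) and 10 rose (15.2%, beside 27.6%), with a median log2 fold change of -0.28. These counts include genes of low level that passed the filter only through the group where they were higher. The lists were not tested as sets, and the 3 tested genes with the largest change in each were named.

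Among other B7 and butyrophilin genes, 5 of 6 tested fell and 0 rose, with a median log2 fold change of -0.54. BTN3A3, a gene of the butyrophilin family, went from 3.21 to 1.495 CPM (log2 fold change -1.06, adjusted p = 0.000124, edgeR). NCR3LG1, which encodes the ligand B7-H6 of the natural killer cell receptor NKp30, went from 12.0 to 6.13 CPM (log2 fold change -0.96, adjusted p = 4.17e-12, edgeR). BTN3A1 fell by 0.57 on the log2 scale (adjusted p = 0.00315, edgeR), a call that was lost without AS1842856 replicate A and when FPKM values were tested with limma. The costimulatory ligands CD80 and CD86 had 0 counts in every library.

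Of 3 other nectins tested, NECTIN3, an adhesion partner of NECTIN2 and PVR, rose from 48.0 to 91.9 CPM (log2 fold change 0.94, SE 0.05, adjusted p = 1.21e-45, edgeR), opposite to the falls of NECTIN2 and PVR. Its libraries were at 46.4, 48.3 and 49.5 CPM in DMSO and at 94.2, 89.4 and 92.2 CPM with AS1842856, far apart. NECTIN1 (log2 fold change -0.24, adjusted p = 0.0656, edgeR) and CADM4 (-0.14, adjusted p = 0.572, edgeR) did not pass the test. Of 3 other galectins tested, the secreted lectins LGALS1 (1015 to 675.9 CPM, log2 fold change -0.59) and LGALS3 (33.6 to 22.4 CPM, -0.60) fell, with adjusted p of 2.85e-44 and 1.29e-12 (edgeR). LGALS8 did not pass (0.22, adjusted p = 0.0705, edgeR). Unlike LGALS9, LGALS1 was abundant in these cells.

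Receptors of the ligands are mostly genes of lymphocytes and macrophages, and 6 of 19 passed the filter, with 3 lower and 1 higher. PDCD1, CTLA4 and TIGIT had 0 counts in all 6 libraries. The immune receptor gene LAG3 was detected and fell from 4.43 to 2.96 CPM (adjusted p = 0.00699, edgeR). SIRPA (5.01 to 4.59 CPM, adjusted p = 0.501, edgeR) and CD226 (1.10 to 0.830 CPM, adjusted p = 0.345, edgeR) did not pass the test. THBS1, which encodes the secreted CD47 ligand thrombospondin-1, fell from 848.7 to 160.7 CPM (log2 fold change -2.40, SE 0.04, adjusted p = 2.87e-154, edgeR). The FPKM ratio of CD47 to THBS1 thus went from 0.137 ± 0.00674 to 0.788 ± 0.0421 (SD, n = 3 each, exact two-sided permutation p = 0.1, the smallest possible). LRIG1, a membrane protein that restrains growth factor receptors, fell by 2.19 (adjusted p = 5.40e-67, edgeR). SELPLG, the gene of PSGL-1, a binding partner of VISTA at acidic pH and a leukocyte gene, rose from 1.52 to 4.26 CPM (adjusted p = 3.77e-09, edgeR), and the leukocyte gene PTPRC rose from 1.15 to 3.15 CPM (adjusted p = 4.99e-07, edgeR).

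**Figure D4:**
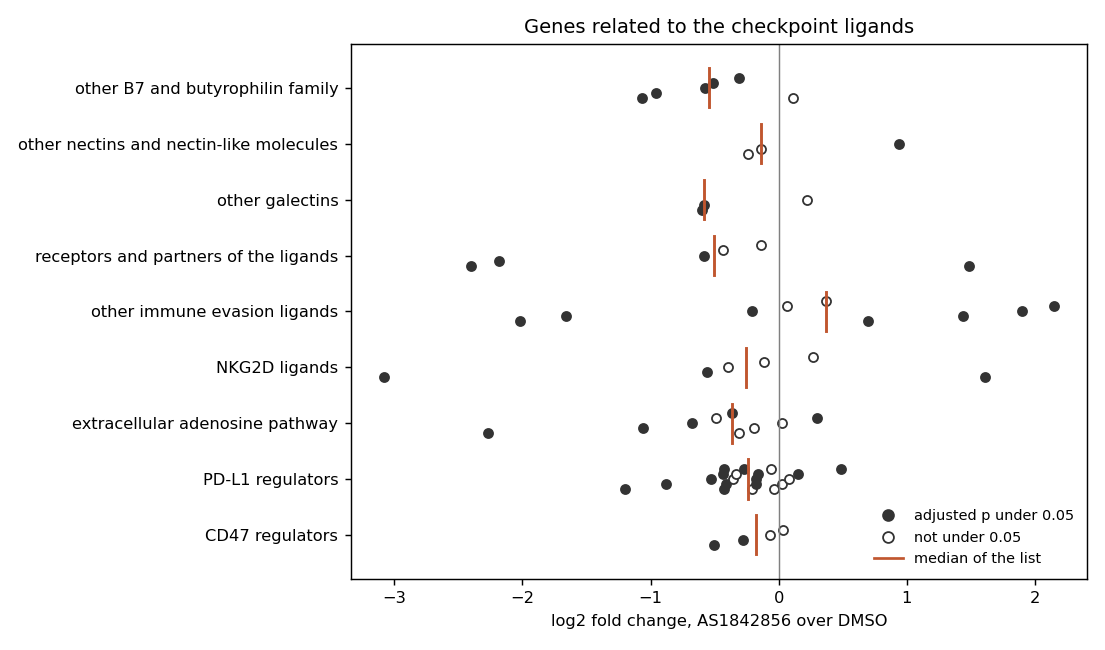
Log2 fold change of AS1842856 over DMSO (horizontal axis) for the tested genes of 9 lists related to the checkpoint ligands, with filled points for an adjusted p under 0.05 and red bars for the median of each list. The medians lie between -0.59 and 0.37, and single genes of the receptor, immune evasion, NKG2D ligand and adenosine lists lie below -2, while TDO2 lies at 2.15.

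Other genes linked to immune evasion, a list of ligands and enzymes, moved both ways, with 4 of 9 tested higher and 3 lower. TDO2, an enzyme that degrades tryptophan, rose from 0.578 to 2.57 CPM (adjusted p = 5.05e-09, edgeR), and ARG2, a mitochondrial arginase, rose from 0.358 to 1.31 CPM (adjusted p = 4.88e-05, edgeR), both at low levels, and the call of ARG2 was lost when FPKM values were tested with limma without a filter. TNFSF9, the ligand of the costimulatory receptor 4-1BB, fell from 16.0 to 3.90 CPM (log2 fold change -2.02, adjusted p = 1.23e-36, edgeR). Ligands of NKG2D, an activating receptor of natural killer cells, had 2 of 6 lower and 1 higher. MICA fell from 41.9 to 28.2 CPM (adjusted p = 7.89e-14, edgeR) and RAET1G from 0.964 to 0.101 CPM (adjusted p = 2.47e-06, edgeR). ULBP1 rose from 0.232 to 0.773 CPM (adjusted p = 0.00557, edgeR), a call that was lost with DESeq2 and without DMSO replicate B. RAET1G passed the filter on low counts only through its DMSO libraries. TDO2, ARG2 and ULBP1 passed it only through the treated ones, as did TNFSF4 (0.552 to 1.53 CPM), also called higher in the immune evasion list. Passing thus depended on the direction of their change, so their p-values and calls are a description and no support for it.

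In the extracellular adenosine pathway, to which NT5E belongs, 4 of 9 tested genes fell and 1 rose, with a median log2 fold change of -0.37. ENPP1, an ectoenzyme that releases AMP, the substrate of CD73, from ATP, fell from 186.5 to 38.7 CPM (log2 fold change -2.27, SE 0.05, adjusted p = 1.89e-124, edgeR). ADORA2B, an adenosine receptor, fell from 34.7 to 16.6 CPM (adjusted p = 7.48e-29, edgeR), and ADA, which deaminates adenosine, fell from 6.61 to 4.10 CPM (adjusted p = 0.000121, edgeR). NT5E exceeded ENTPD1, the other main ectoenzyme of the pathway, by 152.8 ± 16.7 times in DMSO and 110.5 ± 5.02 times with AS1842856 as a ratio of FPKM (SD, n = 3 each, exact two-sided permutation p = 0.1, the smallest possible). Against these falls, ADK, the kinase that removes adenosine by phosphorylation, rose from 54.1 to 66.5 CPM (adjusted p = 2.52e-07, edgeR), and ENTPD1 did not pass the test (log2 fold change 0.02, adjusted p = 0.902, edgeR).

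Regulators of PD-L1 were the list with the most tested genes, and 11 of 20 fell and 2 rose, with a median log2 fold change of -0.24. The largest changes were those of CMTM4, a membrane protein that stabilizes PD-L1 (20.3 to 8.84 CPM, log2 fold change -1.20, adjusted p = 5.55e-23, edgeR), of STAT3 (292.6 to 159.0 CPM, -0.88, adjusted p = 1.44e-62, edgeR) and of the interferon receptor kinase JAK1 (269.9 to 187.1 CPM, -0.53, adjusted p = 2.75e-32, edgeR). CD274 itself had the smaller change of -0.12 that did not pass the test, and a link between it and the changes of these regulators was not tested. Of 4 tested regulators of CD47, QPCTL, the enzyme that modifies CD47 for binding to SIRPA, fell from 27.8 to 19.7 CPM (adjusted p = 1.29e-08, edgeR), and CALR, a phagocytosis signal opposed by CD47, fell from 1420 to 1171 CPM (adjusted p = 1.33e-14, edgeR). LRP1, the receptor of calreticulin, did not pass (log2 fold change -0.07, adjusted p = 0.225, edgeR). CD47 thus rose slightly while the gene of the enzyme that modifies its protein fell.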

How the data were processed

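RNA-Seq was measured in 6 libraries of BT549 cells, grouped by treatment per the labels. The authors deposited raw read counts per gene, not normalized, and FPKM values per library, on a scale that takes exon length and depth into account. The submitters' processing notes name CASAVA, Bowtie 0.12.2 and GRCh38 (hg38), whereas the methods text names STAR. The counting tool, annotation and use of strand are not given in the sources used here. All 58735 gene identifiers were found in GENCODE release 29 (Ensembl 94), which gave symbols and positions, and the FPKM tables listed 25015 genes.

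The counts were fitted with edgeR 4.0.16 in R 4.3.3, after filterByExpr (minimum count 10, minimum total 15) and TMM scaling, by glmQLFit (robust) and glmQLFTest, with Benjamini-Hochberg adjustment over 14338 genes and a threshold of 0.05. The standard error was the size of the log2 fold change over the square root of F, and 95% intervals spanned 1.96 standard errors to either side. Library totals ran from 15289500 to 22981832 counts, and the common biological coefficient of variation was 0.0374. A count of 0 was taken to allow up to 3 counts. Such limits and count intervals hold for counting error alone and leave out the spread between libraries. PCR copies of 1 molecule cannot be recognized in these reads, so counting error itself may not be covered in full.

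The checkpoint ligands and the companion lists were chosen with earlier results of these data known. Genes named were all 10 ligands, the 3 tested genes of each list with the largest change, genes overlapping or nearly identical to a ligand, and the 5 genes most like VSIR. Genes at 0 counts, the genes neighbouring VSIR, PVR and NECTIN2, ENTPD1, ADK, TNFSF4, LAG3, SIRPA, CD226 and cell type markers were named in addition, after their values were seen. Alternatives were DESeq2 1.42.0, edgeR with the size factors of DESeq2 or with library totals, a filter at a mean of 50 counts or none, a replicate block, each library left out, and limma 3.58.1 on log2(FPKM + 1) and log2(FPKM + 0.1). The fits were tested on simulated data first. Ratios were compared by exact permutation tests in scipy 1.17.1. Protein sequences and a promoter of PDCD1LG2 were not used here. The values of 1 blood cell marker are not reported here.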

Additional observations from a re-analysis of the deposited data

How the results depend on the processing

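The 6 checkpoint ligands called (PDCD1LG2, CD276, PVR, NECTIN2, NT5E and CD47) were 6 in each of the alternatives that kept all libraries, and 5 without AS1842856 replicate B, where CD47 was lost. The log2 fold change of VSIR depended on the scale, because a pseudocount damps changes of low values. It was -1.66 by limma on log2(FPKM + 1), with a filter and without, and -4.02 on log2(FPKM + 0.1). Leaving out 1 library at a time gave -6.54 to -4.97. For the 34 other tested ligands and list genes named by rule, 484 fold changes over 15 alternatives kept their direction and their side of the threshold, 8 lost and 3 gained a call (NECTIN1, LGALS8 and LRP1, each without 1 DMSO library), and 0 changed direction. The companion lists had 33 to 44 genes called, beside 42. Over all genes, the count called was between 6523 and 8030 with all libraries and between 7427 and 7678 with 1 left out. Deviations of libraries with the same letter correlated at 0.0260, -0.0105 and -0.0128, and those with different letters at -0.0143 to 0.0254. No shared deviation by letter was seen. This cannot decide whether the letters mark paired cultures, because paired cultures need not share a deviation. With the replicate block, 7862 genes and 6 ligands were called and VSIR was at -5.48. Depth limits VSIR in treated cells (15 counts in all) and LGALS9, and VTCN1 could not be compared.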
